A study of Danio rerio with 24 samples.

Results

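The genes lyz, mpx and coro1a are markers of white blood cells, and they were followed here over 24 microarrays of sorted zebrafish cells. Their members were taken as the probe sets (groups of array probes that read 1 transcript) whose annotated symbol was lyz, coro1a or mpx. This gave 7 of 15502 probe sets: 1 for lyz, 2 for coro1a and 4 for mpx. The 3 genes were chosen by how they lay between the 2 sorted fractions, so their difference between the fractions is given as a description, with no test. Sequences of the probes were not used here.

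The embryos were homozygous for Tg(XlEef1a1:GFP)s854, a transgene whose GFP labels the endodermal digestive organs. Embryos were raised with phenylthiourea against pigment, dissociated with proteases at 2, 3, 4 or 6 days post fertilization (dpf) and sorted by GFP signal into 2 gates, GFP+ and GFP-. Each gate was sampled at all 4 ages, which makes 4 GFP+ and 4 GFP- groups of the same line, each with 3 arrays of amplified total RNA. The labels do not say that replicates came from separate clutches, so the p-values may measure technical spread. Each array has a median score of 0 and a standard deviation (SD) of 1, so a difference of 1 is 1 array SD and not a fold change.

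Lysozyme, encoded by lyz, cleaves bacterial cell walls and is made by myeloid cells, the neutrophils and macrophages that guard tissues from early in fish development. Myeloperoxidase, encoded by mpx, is a heme enzyme of neutrophil granules that makes hypochlorous acid, and it is a standard neutrophil marker in zebrafish embryos. Coronin 1A, encoded by coro1a, binds filamentous actin and the Arp2/3 complex, which nucleates branched actin, and is found in blood cells of most leukocyte lineages.

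With the ages averaged, all 14 markers of liver, pancreas and gut scored higher in GFP+ cells (37.7% of all probe sets). All 15 markers of eye, neuron, muscle and skin scored lower (20.7%). Both lists were written with earlier results of these data known, so these counts do not test the gate labels. At 6 dpf the digestive markers were less split. Of the 14, 7 were higher (23.2% of all probe sets), 6 did not pass and 1 was lower (14.9%), gcga at -1.06 ± 0.24 (SE). Of the other 15 markers 12 were lower at 6 dpf and 3 did not pass. The median score of the digestive markers ranged from 1.69 to 3.53 on GFP+ arrays and from -0.32 to 2.62 on GFP- arrays. Replicates correlated with their group mates at 0.925 or more, except the third GFP+ array at 6 dpf at 0.897. In bulk RNA of sorted cells, fewer cells of a type and less RNA per cell cannot be told apart.

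The single lyz probe set, Dr.12602.1.S1_at, was lower on each of the 12 GFP+ arrays than on any of the 12 GFP- arrays. On GFP+ arrays it scored -0.10, -0.21 and 1.65 (2 dpf), 0.15, 0.10 and -0.06 (3 dpf), -0.20, 0.12 and 1.28 (4 dpf) and 0.92, 0.95 and -0.15 (6 dpf). On GFP- arrays it scored 3.31, 3.39 and 3.62 (2 dpf), 2.88, 3.03 and 2.59 (3 dpf), 2.95, 2.82 and 3.36 (4 dpf) and 2.24, 3.49 and 2.58 (6 dpf). The mean was 0.37 ± 0.65 in GFP+ and 3.02 ± 0.42 in GFP- cells (SD, n = 12 arrays per gate), a difference of -2.65 ± 0.21 (SE). The GFP+ arrays did not form 1 level: the third array at 2 dpf, the third at 4 dpf and the first and second at 6 dpf stood above the other 8, at percentiles of 87.5, 81.1, 74.6 and 75.6 among the probe sets of those arrays. From high to low the group means ran GFP- 2, 4, 3 and 6 dpf, then GFP+ 6, 2, 4 and 3 dpf, and within each gate neighbouring groups overlapped.

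The 2 coro1a probe sets both lay on the GFP- side but followed different courses. Probe set Dr.9515.1.A1_at scored -0.64, -0.42 and -0.08 on the 2 dpf GFP+ arrays, -0.31, -0.51 and -0.40 on those of 3 dpf, -0.01, -0.32 and 0.002 on those of 4 dpf and -0.03, 0.05 and -0.33 on those of 6 dpf. On GFP- arrays its scores were 0.72, 0.86 and 1.96 (2 dpf), 0.75, 1.11 and 0.67 (3 dpf), 1.22, 0.80 and 1.48 (4 dpf) and 0.13, 1.48 and 0.49 (6 dpf). The gates did not overlap, and within each gate the 4 ages did. Its difference between the gates was -1.22 ± 0.15 (SE), with means of -0.25 ± 0.23 in GFP+ and 0.97 ± 0.50 in GFP- cells (SD, n = 12).

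The other coro1a probe set, Dr.3499.3.A1_at, was the brighter of the pair by its mean over the 24 arrays. It scored 1.39, 1.22 and 0.83 on the 2 dpf GFP+ arrays, 0.46, 0.61 and 1.00 on those of 3 dpf, -0.33, 0.08 and 0.17 on those of 4 dpf and -0.42, -0.59 and 0.03 on those of 6 dpf. On GFP- arrays it scored 2.12, 2.12 and 1.69 (2 dpf), 1.36, 1.59 and 2.03 (3 dpf), 1.58, 2.01 and 1.55 (4 dpf) and 1.2, 1.65 and 1.58 (6 dpf). The GFP+ arrays of 2 and 3 dpf lay above all those of 4 and 6 dpf, and 10 of the 12 GFP+ arrays lay below every GFP- array. The means were 0.37 ± 0.65 in GFP+ and 1.71 ± 0.30 in GFP- cells (SD, n = 12), a difference of -1.34 ± 0.11 (SE).

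For mpx, 1 of the 4 probe sets lay clearly on the GFP+ side. Probe set Dr.9478.2.S1_at scored 1.06, 1.09 and 1.5 on the 2 dpf GFP+ arrays, 2.09, 1.76 and 2.14 on those of 3 dpf, 2.61, 1.94 and 2.66 on those of 4 dpf and 2.67, 2.69 and 2.97 on those of 6 dpf. On GFP- arrays it scored 0.23, 0.38 and -0.09 (2 dpf), 0.29, 0.61 and 0.88 (3 dpf), 1.01, 1.03 and 1.58 (4 dpf) and 0.89, 1.18 and 1.17 (6 dpf). Of the 12 GFP+ arrays, 9 lay above every GFP- array, and the GFP+ arrays of 2 dpf overlapped the GFP- arrays of 4 and 6 dpf. Its difference between the gates was 1.34 ± 0.10 (SE), with means of 2.1 ± 0.65 in GFP+ and 0.76 ± 0.48 in GFP- cells (SD, n = 12).

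The other 3 mpx probe sets differed little between the gates. Probe set Dr.9478.3.S1_a_at ranged from -0.40 to 0.35 on GFP+ arrays (median -0.08) and from -0.23 to 0.75 on GFP- arrays (median 0.22), a difference of -0.31 ± 0.11 (SE). Probe set Dr.9478.4.S1_a_at ranged from -0.92 to -0.03 on GFP+ arrays (median -0.39) and from -0.46 to 0.18 on GFP- arrays (median -0.14), a difference of -0.24 ± 0.10 (SE). Both differences were small, with the same sign as those of lyz and coro1a. The group means of Dr.9478.3.S1_a_at stood at percentiles of 41.2 to 62.5 and those of Dr.9478.4.S1_a_at at 22.2 to 48.2. Probe set Dr.9478.4.S1_at ranged from -0.79 to -0.36 on GFP+ arrays (median -0.63) and from -0.82 to -0.58 on GFP- arrays (median -0.73), a difference of 0.12 ± 0.05 (SE). The gates overlapped for each of these 3 probe sets. With the 4 mpx probe sets averaged on each array, the difference between the gates was 0.23 array SD, against 1.34 for Dr.9478.2.S1_at alone.

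**Figure D1:**
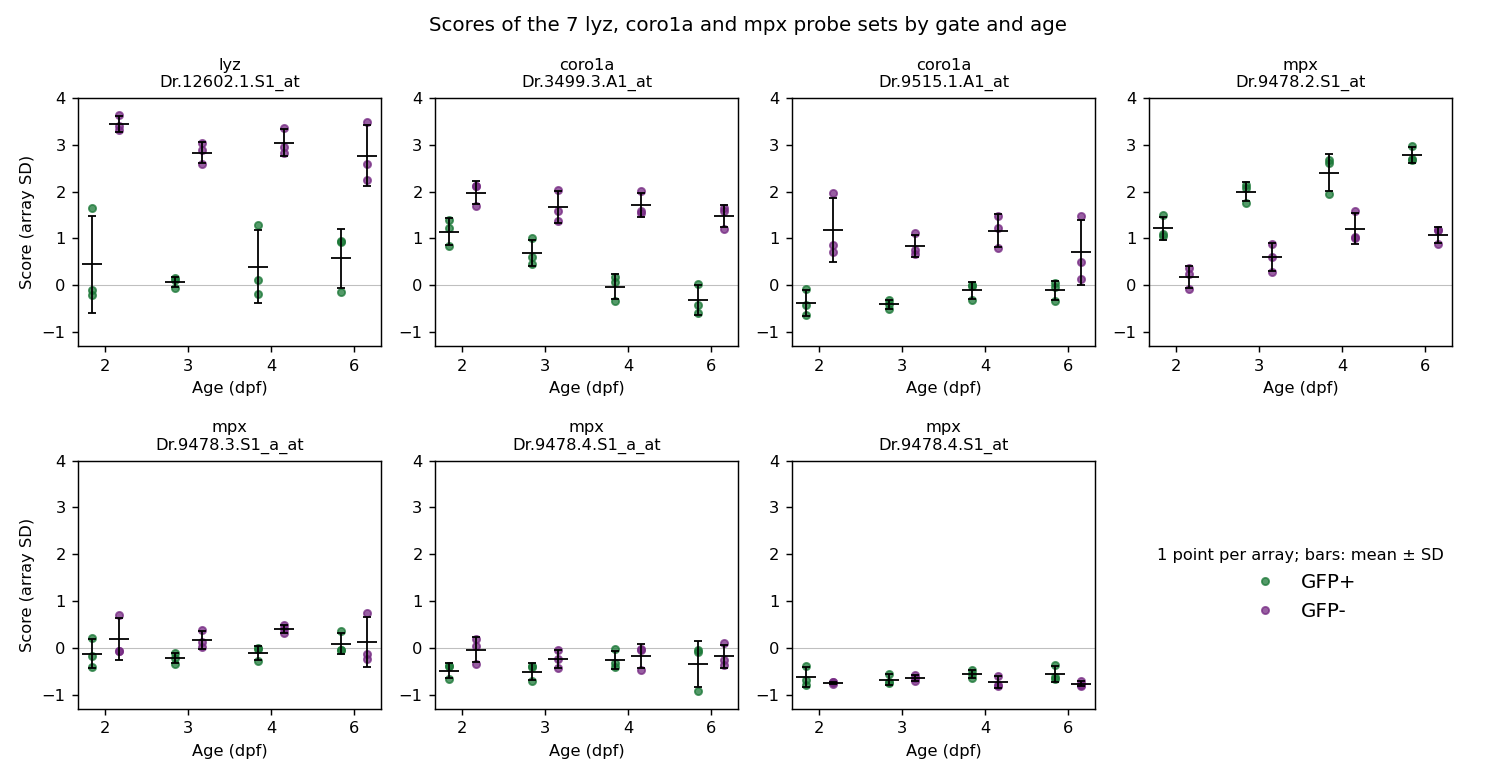
Score (array SD) of each member probe set against age in dpf, with 1 point per array, GFP+ in green left of GFP- in purple, and bars for the mean ± SD of 3 arrays. The lyz and both coro1a probe sets sit lower in GFP+ cells, mpx Dr.9478.2.S1_at sits higher, and the other 3 mpx probe sets lie within 1 array SD of 0 in both gates.

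The probe sets were then set against all others on the array by Pearson correlation of their scores. These correlations describe arrays that share the sort and the ages, so they are given over all 24 arrays unless a gate is named (12 arrays), with no p. The gene most like mpx Dr.9478.2.S1_at was cyp1a, a cytochrome P450 of xenobiotic metabolism, at r = 0.995, with 0.991 in GFP+ and 0.979 in GFP- cells. Its probe set, Dr.9478.1.S1_at, stood first of 15501 in each of these 3 orders, and the next highest r over the 24 arrays was 0.966. The other 4 genes most like it were the phosphoglucomutase gene pgm1 (0.966), the inter-alpha-trypsin inhibitor genes itih3b.2 (0.965) and itih2 (0.964), and the angiotensinogen gene agt (0.962), of which itih2 and agt encode plasma proteins known from the liver. Within the gates these 4 correlated with it at 0.969 to 0.976 in GFP+ and 0.815 to 0.885 in GFP- cells. None of these 5 genes is a white blood cell marker.

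The gene most like coro1a Dr.3499.3.A1_at was cldni, a claudin of epithelial tight junctions, at r = 0.988, with 0.970 in GFP+ and 0.98 in GFP- cells. Of 15501 other probe sets, that of cldni stood first over the 24 arrays and in GFP- cells, but second in GFP+ cells. The next highest r over the 24 arrays was 0.976. The keratin gene krt5 (0.963) and the cofilin gene cfl1l (0.959) came next among genes, followed by mbd3b (0.940) and rgl3a (0.939). The last 2 were far less like it in the GFP- gate: mbd3b stood at 0.968 in GFP+ and 0.134 in GFP- cells and rgl3a at 0.900 and 0.476, while krt5 and cfl1l stayed at 0.887 or more in both. Keratin 5 is an intermediate filament protein of the epidermis. The second coro1a probe set, Dr.9515.1.A1_at, was like other genes: mafbb (0.947), a transcription factor of the Maf family, arpc1b (0.939), a subunit of the Arp2/3 complex, the cathepsin gene ctss2.1 (0.939), lyz (0.918) and the collagenase gene mmp13a (0.916). Within the gates these 5 stood lower, from 0.079 (mmp13a) to 0.674 (lyz) in GFP+ and from 0.794 (mmp13a) to 0.888 (arpc1b) in GFP- cells. The 2 coro1a probe sets correlated with each other at 0.608 over the 24 arrays, and at -0.765 in GFP+ and 0.049 in GFP- cells.

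For this ranking each other gene was read by its brightest probe set. The 5 genes most like lyz were then arpc1b (0.909), the fin fold gene and2 (0.906), hlx1 (0.899), mmp13a (0.892) and ctss2.1 (0.892). Their correlation with lyz within the gates ran from 0.145 (and2) to 0.557 (hlx1) in GFP+ and from 0.564 (and2) to 0.936 (arpc1b) in GFP- cells. Between lyz and coro1a Dr.9515.1.A1_at, the less bright coro1a probe set, r was 0.918 over the 24 arrays, above all 5 of these genes. Within the gates r was 0.674 in GFP+ and 0.830 in GFP- cells. Between lyz and coro1a Dr.3499.3.A1_at it was 0.724 over the 24 arrays, and -0.272 in GFP+ and 0.345 in GFP- cells. Among the mpx probe sets, Dr.9478.3.S1_a_at was most like nrros (0.882), a regulator of reactive oxygen species in phagocytes, and like the serglycin gene srgn (0.839), the gelatinase gene mmp9 (0.834), ptprc (0.812), which encodes the pan-leukocyte phosphatase CD45, and tnfaip8l2a (0.811). Within the gates these 5 stood at 0.636 to 0.948 in GFP+ and 0.774 to 0.937 in GFP- cells. The third GFP+ array at 6 dpf had the highest GFP+ score of Dr.9478.3.S1_a_at (0.35), srgn (0.40) and mmp9 (0.47). How far the GFP+ correlations rest on that array was not tested. Probe set Dr.9478.3.S1_a_at correlated with lyz at 0.555 over the 24 arrays, with -0.028 in GFP+ and 0.609 in GFP- cells. With coro1a Dr.9515.1.A1_at it stood at 0.730, with 0.028 in GFP+ and 0.865 in GFP- cells. The genes most like mpx Dr.9478.4.S1_a_at were led by thbs3a (0.841) and flt4 (0.818), and those most like Dr.9478.4.S1_at by fam221a (0.893) and or91a3 (0.889). All 4 were closer in GFP+ (0.911 to 0.942) than in GFP- cells (0.558 to 0.667).

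The names of the probe sets carry the number of the transcript cluster that the array's designers built them from. The mpx probe set Dr.9478.2.S1_at and the cyp1a probe set Dr.9478.1.S1_at share a number. So do the coro1a probe set Dr.3499.3.A1_at and the cldni probe set Dr.3499.2.S1_a_at. Number 3499 is carried by 2 probe sets. Number 9478 is carried by 5, which include mpx Dr.9478.3.S1_a_at, Dr.9478.4.S1_a_at and Dr.9478.4.S1_at. With these, which share both number and symbol, Dr.9478.2.S1_at correlated at -0.265, -0.362 and 0.426 over the 24 arrays. The table holds 916 pairs of probe sets that share such a number but carry different gene symbols, and their median r over the 24 arrays was 0.219. The pair of mpx Dr.9478.2.S1_at and cyp1a had the highest r of these 916, the coro1a and cldni pair the second highest, and the third stood at 0.976. Pairs that share both number and symbol numbered 1307, with a median r of 0.646, and 2.83% of them reached 0.98. The look at cluster numbers was chosen after the values were seen. Which transcripts the probes of Dr.9478.2.S1_at and Dr.3499.3.A1_at bind was not tested.

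**Figure D2:**
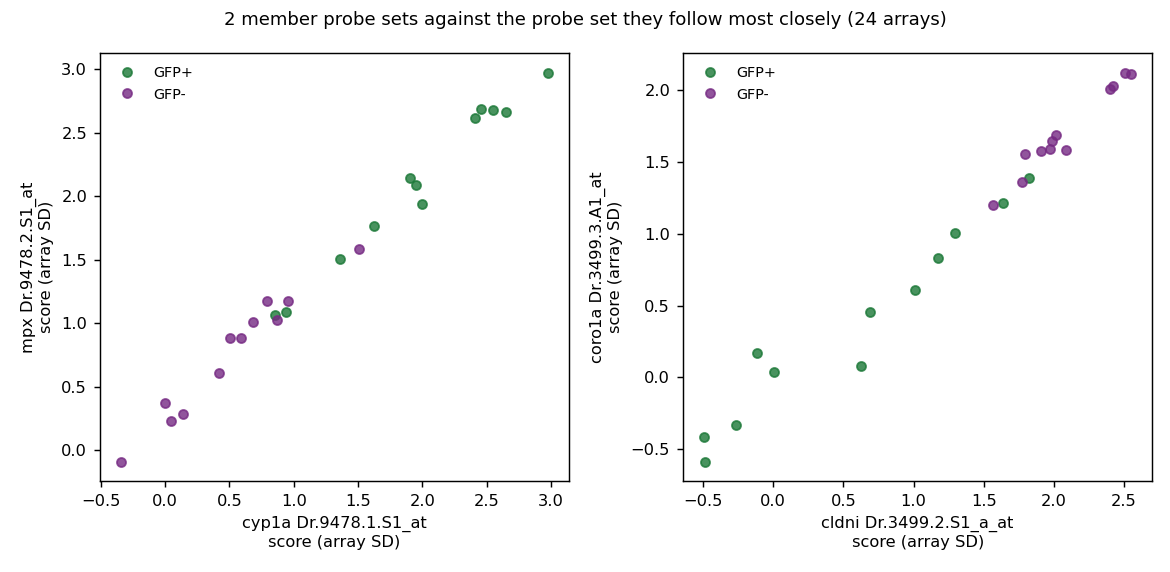
Score (array SD) of mpx Dr.9478.2.S1_at against cyp1a Dr.9478.1.S1_at on the left and of coro1a Dr.3499.3.A1_at against cldni Dr.3499.2.S1_a_at on the right, with 1 point per array (GFP+ green, GFP- purple). Points of both gates fall along 1 line in each panel, with r = 0.995 and r = 0.988 over the 24 arrays.

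Change with age was not used in choosing the genes, and it was tested in each gate with limma over all 15502 probe sets (two-sided, Benjamini-Hochberg adjustment, called at an adjusted p under 0.05). With 3 arrays a group, the smallest p of an exact permutation test is 0.1, and the calls therefore rest on the moderated model. Between 6 and 2 dpf in GFP+ cells 2 of the 7 member probe sets changed, where 22.2% of all probe sets were called. They were mpx Dr.9478.2.S1_at, which rose by 1.56 ± 0.20 array SD (limma adjusted p = 1.21e-05), and coro1a Dr.3499.3.A1_at, which changed by -1.47 ± 0.21 (limma adjusted p = 4.06e-05). All 3 arrays of 6 dpf lay above all 3 of 2 dpf for the mpx probe set and below them for the coro1a probe set. The other 5 did not pass: lyz differed by 0.13 ± 0.43 (limma adjusted p = 0.865) and coro1a Dr.9515.1.A1_at by 0.28 ± 0.30 (limma adjusted p = 0.572).

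In GFP- cells mpx Dr.9478.2.S1_at was the 1 member probe set of 7 that changed between 6 and 2 dpf, against 18.4% of all probe sets. It rose by 0.91 ± 0.20 array SD (limma adjusted p = 0.00341). Values that did not pass were -0.67 ± 0.43 for lyz (limma adjusted p = 0.344), -0.50 ± 0.21 for coro1a Dr.3499.3.A1_at (limma adjusted p = 0.124) and -0.48 ± 0.30 for coro1a Dr.9515.1.A1_at (limma adjusted p = 0.333). The last was called when the second GFP- array of 6 dpf was left out (-0.87, limma adjusted p = 0.042). With the probe sets of a gene averaged, coro1a was called lower at 6 dpf (-0.49, limma adjusted p = 0.029) and mpx was not called (0.17, limma adjusted p = 0.243). The coro1a average joins 2 probe sets that correlated at 0.049 in GFP- cells.

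An F test over the 4 ages gave the same split. In GFP+ cells it called mpx Dr.9478.2.S1_at (adjusted p = 6.35e-05 from limma) and coro1a Dr.3499.3.A1_at (adjusted p = 0.000106 from limma), where 24.7% of all probe sets were called. In GFP- cells it called mpx Dr.9478.2.S1_at (adjusted p = 0.00296 from limma), where 17.8% were called. The single lyz probe set was not called by it in GFP+ (adjusted p = 0.776 from limma) or GFP- cells (adjusted p = 0.72 from limma). Of the 42 tests of a member probe set between neighbouring ages, 1 passed: coro1a Dr.3499.3.A1_at differed by -0.72 ± 0.21 between 4 and 3 dpf in GFP+ cells (adjusted p = 0.0483 from limma). That call was lost in 12 of the 24 fits that left out 1 array. In GFP+ cells 0.826% of all probe sets were called between 3 and 2 dpf, 6.89% between 4 and 3 dpf and 4.59% between 6 and 4 dpf, and in GFP- cells 4.83%, 4.08% and 0.497%.

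**Figure D3:**
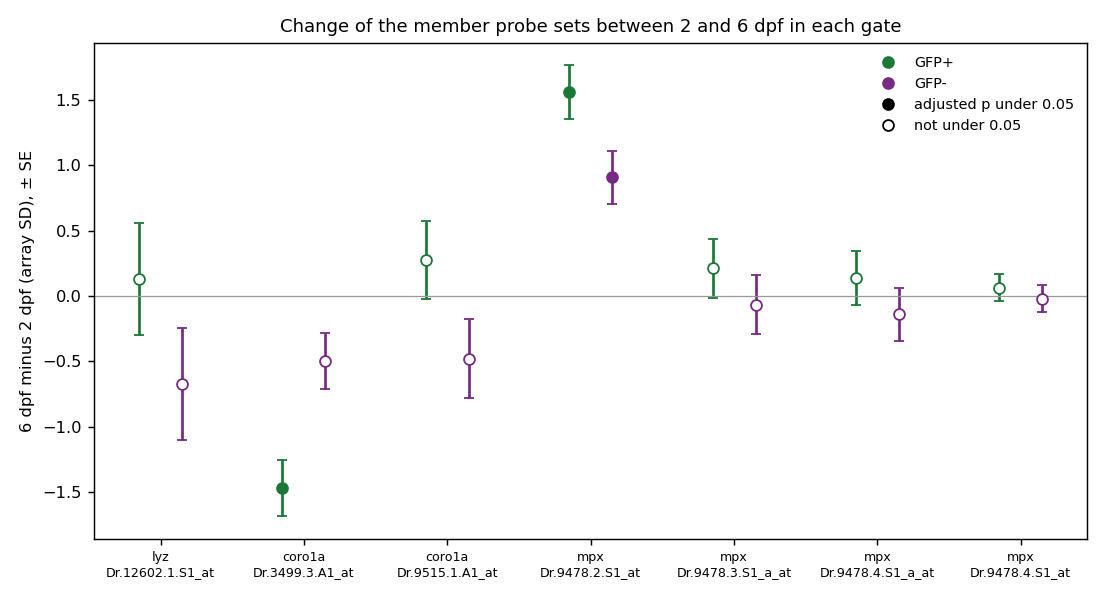
Difference in score between 6 and 2 dpf (array SD, ± SE from the limma model) for each member probe set, GFP+ in green left of GFP- in purple, filled where the adjusted p is under 0.05. The filled points are mpx Dr.9478.2.S1_at at 1.56 in GFP+ and 0.91 in GFP- cells and coro1a Dr.3499.3.A1_at at -1.47 in GFP+ cells.

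The 2 partner probe sets moved alike. Between 6 and 2 dpf cyp1a rose by 1.61 ± 0.21 array SD in GFP+ (adjusted p = 1.29e-05 from limma) and 0.85 ± 0.21 in GFP- cells (adjusted p = 0.00742 from limma). The claudin gene cldni changed by -1.87 ± 0.25 in GFP+ cells (adjusted p = 1.61e-05 from limma), and in GFP- cells its difference of -0.48 ± 0.25 did not pass (adjusted p = 0.228 from limma). Markers of other tissues moved over the same ages, where 22.2% of all probe sets were called in GFP+ and 18.4% in GFP- cells. Of the 14 digestive markers 7 rose and 2 fell in GFP+ cells and 13 rose in GFP- cells, where their median score was 2.28, 2.29 and 2.22 on the arrays of 6 dpf, against -0.12, -0.26 and -0.32 on those of 2 dpf. The third GFP- array of 4 dpf had the highest median of these markers in its gate (2.62) and the highest score of mpx Dr.9478.2.S1_at in its gate (1.58). Of the 15 markers of eye, neuron, muscle and skin 8 fell in GFP+ cells, where their median score was -0.05, 0.17 and -0.11 at 6 dpf, against 0.74, 0.89 and 0.79 at 2 dpf. A measure of RNA quality, the 3′ GAPDH control score less the 5′ one, was -0.13, -0.10 and 0.27 on GFP+ arrays at 6 dpf, against 0.76, 0.40 and 0.53 at 2 dpf. On GFP- arrays it was 0.85, 0.24 and 0.35 at 6 dpf, against 0.24, 0.27 and 0.27 at 2 dpf. The part of these measures in the changes with age was not tested.

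The change with age was also compared between the gates. No member probe set passed for the GFP+ minus GFP- difference at 6 dpf less that at 2 dpf, where 8.42% of all probe sets were called. The nearest was coro1a Dr.3499.3.A1_at, whose difference was -1.80 at 6 dpf, against -0.83 at 2 dpf, a change of -0.97 ± 0.30 (adjusted p = 0.0538 from limma). With a replicate block for each GFP+ and GFP- pair, as the series design describes the samples, it was called (adjusted p = 0.00787 from limma), and it was also called in 4 other settings. That block called 1438 of all probe sets, against 1306 without it. The cldni probe set changed by -1.39 ± 0.36 in the same comparison (adjusted p = 0.0174 from limma). For mpx Dr.9478.2.S1_at the change was 0.65 ± 0.29 (adjusted p = 0.187 from limma), for lyz 0.80 ± 0.61 (adjusted p = 0.48 from limma) and for coro1a Dr.9515.1.A1_at 0.76 ± 0.42 (adjusted p = 0.32 from limma). The F test of whether the gate difference varied over the 4 ages called 0 of the 7, with coro1a Dr.3499.3.A1_at at an unadjusted p of 0.00632 (adjusted p = 0.0725 from limma), and 6.95% of all probe sets. With the replicate block this F test called 1 of the 7.

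Other white blood cell genes were counted to place lyz, coro1a and mpx, each by its brightest probe set and with the 3 genes left out. The lists were written with earlier results of these data known. Of 50 leukocyte genes on the array, 22 were lower and 9 higher in GFP+ cells over the 4 ages (limma, adjusted p under 0.05). Among all probe sets 20.7% were called lower and 37.7% higher. That base is not like the list, as it includes several probe sets per gene and those with no symbol or low scores. A fit to probe sets of mean score 0 or more called 2443 lower and 3038 higher, against 3211 and 5844 over all. The median difference of the 50 genes was -0.11 array SD, against 0.08 over all probe sets. After quantile normalization of the arrays the share of calls on the higher side, over all probe sets, was 53.3%, against 64.5% as deposited.

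Genes that most leukocytes share were mostly on the GFP- side. Of 15, 10 were lower (20.7% of all probe sets), 1 was higher (37.7%) and 4 did not pass. Among the lower genes were srgn (-1.19 ± 0.17), the proteoglycan core of secretory granules, the profilin gene pfn1 (-1.18 ± 0.14), which feeds actin monomers to filaments, and arpc1b (-0.99 ± 0.12). The pfn1 mean was high in both gates, at 1.82 in GFP+ and 3.00 in GFP- cells. The 1 higher gene was cd44a (0.50 ± 0.13), a hyaluronan receptor that many epithelia also express, named here after its value was seen. The 4 that did not pass were ptprc (-0.137 ± 0.065), spi1b (-0.067 ± 0.109), ptpn6 (-0.042 ± 0.101) and cotl1 (-0.163 ± 0.093). The median score of this list ranged from -0.19 to 0.19 on GFP+ arrays and from 0.38 to 1.22 on GFP- arrays, without overlap.

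Of 12 neutrophil genes 5 were lower (20.7% of all probe sets) and 1 higher (37.7%) in GFP+ cells, and 6 did not pass. The median difference of the 12 was -0.115 array SD. The matrix metalloproteinase genes mmp13a (-1.32 ± 0.12) and mmp9 (-1.06 ± 0.13), the cofilin gene cfl1l (-1.27 ± 0.13) and the myeloid transcription factor gene cebp1 (-0.69 ± 0.23) were lower. The 1 higher gene was nccrp1 (0.32 ± 0.12). Those that did not pass were ncf1, ncf4, cebpb, vamp8, timp2b and alox5ap, with differences from -0.117 (vamp8) to 0.107 (timp2b). The median score of the neutrophil list ranged from -0.22 to 0.21 on GFP+ arrays and from 0.06 to 0.87 on GFP- arrays. As given above, cfl1l was also among the genes most like coro1a Dr.3499.3.A1_at, beside krt5.

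Of 14 macrophage genes 5 were lower (20.7% of all probe sets) and 4 higher (37.7%) in GFP+ cells. Without the third GFP- array of 4 dpf or the second of 6 dpf, 3 were lower. The cathepsin S genes ctss2.1 (-0.76 ± 0.09) and ctss2.2 (-0.33 ± 0.11), lysosomal proteases, were lower. The granulin gene grna.1 (0.56 ± 0.07) and the tetraspanin gene cd63 (0.53 ± 0.09), both of which encode proteins of lysosomes in many cell types, were higher. So were slc7a7 (0.265 ± 0.109) and the complement gene c1qc (0.112 ± 0.037), whose mean was low in both gates, at -0.53 in GFP+ and -0.64 in GFP- cells. The other lower genes were marco (-0.245 ± 0.094), lgmn (-0.235 ± 0.062) and ctsc (-0.229 ± 0.083). Those that did not pass were csf1ra, cd74a, cd74b, lgals9l1 and spp1. Of 7 lymphoid genes 1 was lower, tox (-0.89 ± 0.06), a thymocyte regulator that neurons also express, and 2 were higher, the recombinase gene rag1 (0.10 ± 0.04) and ikzf1 (0.10 ± 0.04). Both of these higher calls were lost after quantile normalization. Both genes scored low in both gates, with means of -0.56 (rag1) and -0.53 (ikzf1) in GFP+ and -0.66 and -0.63 in GFP- cells. Of 2 mast cell and eosinophil genes the carboxypeptidase gene cpa5 was higher (0.96 ± 0.21), as all 14 digestive markers were, and gata2a lower (-0.29 ± 0.06). The gata2a mean was below the array median in both gates, at -0.42 in GFP+ and -0.13 in GFP- cells.

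**Figure D4:**
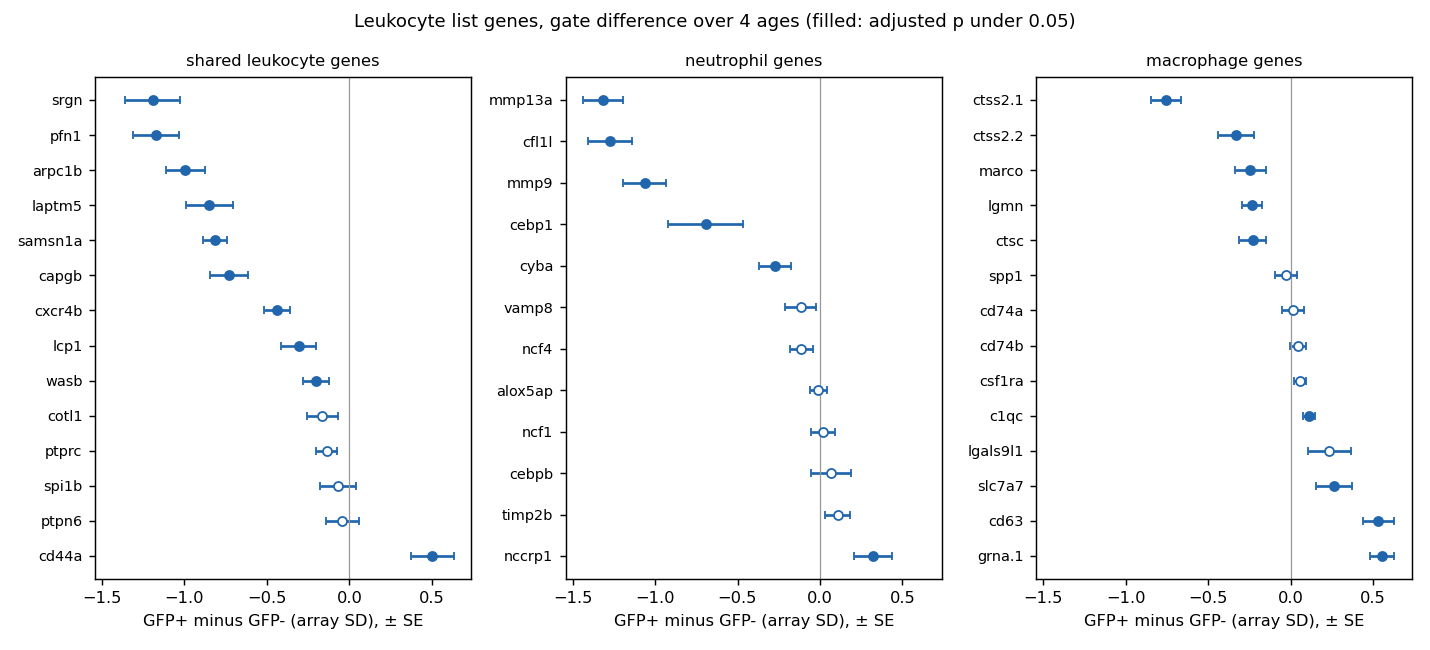
GFP+ minus GFP- difference over the 4 ages (array SD, ± SE from the limma model) of the shared leukocyte, neutrophil and macrophage genes, without lyz, mpx and coro1a and with 14 of the 15 shared genes drawn, filled where the adjusted p is under 0.05. Shared leukocyte genes lie mostly left of 0, from -1.19 for srgn to 0.50 for cd44a, and macrophage genes lie on both sides.

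At single ages fewer of the 50 leukocyte genes passed. At 2 dpf 13 were lower and 2 higher in GFP+ cells, where 7.36% of all probe sets were lower and 9.66% higher. At 3 dpf 11 were lower (12.0% of all probe sets) and 4 higher (14.5%). At 4 dpf 14 were lower (11.3% of all) and 3 higher (19.0%). At 6 dpf 10 were lower (14.9% of all) and 1 higher (23.2%). Between 6 and 2 dpf 4 of the 50 fell and 1 rose in GFP+ cells, and 5 fell and 3 rose in GFP- cells, where 22.2% of all probe sets were called in GFP+ and 18.4% in GFP- cells.

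Within the GFP- gate the leukocyte scores varied between replicates of an age. The third array of 2 dpf and the second of 6 dpf had the 2 highest scores of the gate for lyz (3.62 and 3.49) and for mpx Dr.9478.3.S1_a_at (0.71 and 0.75). The same 2 arrays had the highest medians of the shared leukocyte list (1.22 and 1.12). For coro1a Dr.9515.1.A1_at they scored 1.96 and 1.48, with the third array of 4 dpf also at 1.48. Neither coro1a Dr.3499.3.A1_at (1.69 and 1.65) nor mpx Dr.9478.2.S1_at (-0.09 and 1.18) had its highest GFP- score on these arrays. The first GFP- array of 6 dpf had the lowest score of the gate for lyz (2.24) and for coro1a Dr.9515.1.A1_at (0.13) and Dr.3499.3.A1_at (1.2). It also had the gate's highest 3′ less 5′ GAPDH score (0.85), whose part in this spread was not tested. In the GFP+ gate the 4 arrays with the higher lyz scores had medians of the shared leukocyte list of 0.04, -0.01, -0.14 and -0.01, inside the range of the other 8.

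Relatives of the 3 genes by family or pathway gave the last comparison. Over the 4 ages 20.7% of all probe sets were called lower in GFP+ cells and 37.7% higher. Of 4 other coronin genes 1 was lower and 3 higher in GFP+ cells: coro1b was lower (-1.02 ± 0.06), and coro2aa (0.45 ± 0.14), coro1ca (0.42 ± 0.04) and coro6 (0.15 ± 0.05) were higher. The coro2aa difference changed side with age: it was 1.08 (2 dpf), 1.36 (3 dpf), 0.06 (4 dpf) and -0.70 (6 dpf), the last not called (adjusted p = 0.064 from limma), and its change between 6 and 2 dpf was -1.78 ± 0.41 (adjusted p = 0.00906 from limma). The coro6 mean was low in both gates, at -0.54 in GFP+ and -0.68 in GFP- cells. Coronin proteins bind actin in many cell types. Between 6 and 2 dpf coro2aa fell by 1.54 ± 0.29 in GFP+ cells (adjusted p = 0.000533 from limma), and coro1b fell by 0.72 ± 0.12 (adjusted p = 0.000176 from limma). Of 13 genes of the Arp2/3 complex and branched actin 4 were lower and 1 higher over the 4 ages: arpc1b, arpc3 (-0.20 ± 0.05), arpc5b (-0.20 ± 0.06) and wasb (-0.20 ± 0.08) were lower, and actr2a (0.24 ± 0.05) was higher, with wasb named after its value was seen. Of 2 heme peroxidase relatives of mpx, the cyclooxygenase genes, ptgs2a was lower (-0.32 ± 0.06) and ptgs1 did not pass (-0.08 ± 0.05). The means of ptgs2a (-0.54 in GFP+ and -0.22 in GFP- cells) and wasb (-0.44 and -0.24) were below the array median in both gates. No lysozyme gene other than lyz was matched among the list's 3.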

How the data were processed

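The authors deposited 1 score per probe set and array; RMA is named in the submitters' processing notes, and neither the base of the logarithm nor how arrays were scaled is given in the sources used here. Each array had a median of 0 and an SD of 1 over 15617 probe sets. No fold change is given, and the number of arrays limits the precision. After removal of 115 controls, a model of 8 group means was fitted to 15502 probe sets with limma 3.58.1 in R 4.3.3, unfiltered, and checked on simulated data. Symbols came from the array annotation (10795 probe sets with 1 symbol, 135 with several, 4572 with none). The members and all lists were chosen with earlier results of these data known. Named genes are all member probe sets and the 5 genes most correlated with each. Per list, up to 4 called genes with the largest difference between the gates are also named. Coronin and heme peroxidase relatives may all be named. Genes of the shared leukocyte and neutrophil lists that did not pass, and the higher neutrophil gene, were named after their values were seen. So were the macrophage genes other than ctss2.1, ctss2.2, grna.1 and cd63. The values of 1 shared leukocyte gene are not reported here, though it is in the counts. Of 210 genes written in 14 lists, 123 were on the array.

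The series design gives 1 GFP+ and 1 GFP- sample per replicate. Residuals of the 12 such pairs correlated between -0.08 and 0.31 (mean 0.08), against -0.04 for other numbers. The main model has no pair term. Alternatives were a replicate block, quantile normalization, array weights, a trended robust prior, a mean score of at least 0, averaged probe sets, only the arrays compared, and leaving out each array. Leaving out the third GFP+ array at 6 dpf with the third GFP- array at 4 dpf was added after seeing the data.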

Additional observations from a re-analysis of the deposited data

How the results depend on the processing

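The calls of mpx Dr.9478.2.S1_at and coro1a Dr.3499.3.A1_at between 6 and 2 dpf in GFP+ cells held in all settings that fitted these probe sets. Averaged over each gene's probe sets, the values were 0.492 for mpx and -0.596 for coro1a, both called. These averages contain the 2 probe sets themselves, at 1.56 and -1.47, so they are no separate check of the calls. The other probe sets of mpx and coro1a did not pass. Averaging a gene's probe sets gave coro1a -0.489 and mpx 0.169 for the same ages in GFP- cells, a gate difference of 0.226 for mpx, and 0 members called by the F test in GFP- cells and 0 at neighbouring ages in GFP+ cells. The change of the coro1a Dr.3499.3.A1_at gate difference was called with array weights (-1.132), without both doubted arrays (-1.149), and at -0.97 among probe sets of mean score 0 or more, with only the arrays compared and with the replicate block. The count of members called there was 1 in these settings. By the F test of the gate difference it was also 1, except that this test was not fitted with only the arrays compared. Over all probe sets the change of the gate difference was called for 1306 in the main model and 3571 with array weights. It was called for 1780 without both doubted arrays, 1438 with the replicate block and 1187 among probe sets of mean score 0 or more. The replicate block changed no other call on the members. For tests within a gate that block was the replicate number, which the labels do not tie across ages. Those tests therefore say nothing on the GFP+ and GFP- pairs. Calls at neighbouring ages in GFP+ cells numbered 3 with array weights, 2 without both doubted arrays, and 0 with only the arrays compared or after quantile normalization; in GFP- cells array weights gave 1. Leukocyte genes higher at 3 dpf numbered 8 with array weights and 7 with only the arrays compared. At 4 dpf they numbered 1 with only the arrays compared. At 6 dpf they numbered 7 with array weights, 4 without both doubted arrays and 2 with the replicate block. Among probe sets of mean score 0 or more the count at 6 dpf was 0. Over all probe sets the higher calls at 3 dpf were 2244 in the main model and 3483 with array weights. Those at 6 dpf were 3603 in the main model and 5688 with array weights. They were 3836 without both doubted arrays, 3073 with the replicate block and 1993 among probe sets of mean score 0 or more. Lymphoid genes higher over the ages numbered 0 after quantile normalization and among probe sets of mean score 0 or more, 1 with the replicate block and 4 with array weights. Over all probe sets these higher calls were 5844 in the main model, 4067 after quantile normalization and 6642 with array weights. They were 5476 with the replicate block and 3038 among probe sets of mean score 0 or more. Without both doubted arrays mpx Dr.9478.4.S1_at turned to -0.032 in GFP+ cells and -0.012 in the gate difference.

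With each array left out in turn, differences between 6 and 2 dpf that were not called turned sign: in GFP+ cells lyz ranged from -0.199 to 0.731, mpx Dr.9478.4.S1_a_at from -0.016 to 0.425 and Dr.9478.4.S1_at from -0.032 to 0.18. In GFP- cells mpx Dr.9478.3.S1_a_at ranged from -0.38 to 0.187 and Dr.9478.4.S1_at from -0.053 to 0.0. For the gate difference coro1a Dr.3499.3.A1_at ranged from -1.149 to -0.826 and mpx Dr.9478.4.S1_at from -0.012 to 0.2. Members called ranged from 1 to 2 in GFP- cells, from 0 to 1 for the gate difference by contrast and by F test, and from 0 to 2 at neighbouring ages in GFP+ cells. Leukocyte genes lower at 2 dpf ranged from 7 to 14 (7 without the second, 8 without the third GFP+ array, 8 without the third GFP- array), higher at 2 dpf from 0 to 3, higher at 4 dpf from 2 to 5, lower at 6 dpf from 6 to 15 (6 without the second GFP- array) and higher at 6 dpf from 0 to 4. Lymphoid genes higher over the ages ranged from 1 to 4 (4 without the third GFP+ array of 6 dpf). The cause was not tested. The precision is limited by 3 arrays a group.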

Other observations

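Red blood cell genes lay on both sides of the sort. Of 14 erythroid genes 4 were lower and 3 higher in GFP+ cells over the 4 ages, where 20.7% and 37.7% of all probe sets were. The higher ones numbered 5 with array weights or without the third GFP+ array of 6 dpf, and 1 among probe sets of mean score 0 or more. The array medians of the list had a middle value of -0.32 in each gate. The embryonic globin genes hbae3 (-0.95 ± 0.30) and hbbe2 (-0.90 ± 0.28), the anion exchanger gene slc4a1a (-0.72 ± 0.22) and the carbonic anhydrase gene cahz (-0.58 ± 0.09) were lower (array SD, SE of the limma model). Between 6 and 2 dpf 4 of the 14 fell in GFP- cells, among them hbae3 (-2.53 ± 0.60, adjusted p = 0.00472 from limma). Over all 15502 probe sets 18.4% were called in that comparison, 1494 of them lower. Of 5 thrombocyte genes thbs1b was lower (-1.27 ± 0.09), a thrombospondin gene also expressed outside blood. The integrin gene itga2b was higher (0.13 ± 0.04), a call lost after quantile normalization. Its mean was low in both gates, at -0.611 in GFP+ and -0.745 in GFP- cells.

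Of 8 blood progenitor genes 0 were lower and 3 higher in GFP+ cells by limma, with 1 more under an unadjusted p of 0.05 on the lower side, against 37.7% of all probe sets called higher. The lower count was 2 with array weights, after quantile normalization or without the third GFP+ array of 6 dpf, and the higher count was 1 among probe sets of mean score 0 or more. The higher ones were etv6 (0.66 ± 0.06), hhex (0.61 ± 0.12) and kita (0.16 ± 0.05). Of these, hhex is a transcription factor gene that also acts in liver and pancreas development. The kita mean was low in both gates, at -0.50 in GFP+ and -0.66 in GFP- cells. The carboxypeptidase gene cpa5, a mast cell marker in zebrafish, rose between 6 and 2 dpf by 4.04 ± 0.42 in GFP+ cells (adjusted p = 8.8e-07 from limma) and by 2.87 ± 0.42 in GFP- cells (adjusted p = 5.33e-05 from limma). Genes of pancreatic enzymes rose over the same ages: ctrb.1 by 3.41 in GFP+ and 4.36 in GFP- cells, cpa4 by 2.74 and 3.32, and prss1 by 1.73 and 4.17. Their part in the cpa5 values was not tested.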
